A study of Mus musculus with 6 samples.

Results

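Chemokine ligands and their receptors were examined in EpRas cells, with 55 genes of the 18820 that could be read from a probe set of their own. They were taken by gene symbol, as every gene whose name begins with Ccl, Cxcl, Cx3cl, Xcl, Ccr, Cxcr, Cx3cr, Xcr or Ackr followed by a number. This gave 34 ligands (19 CC, 13 CXC, 1 CX3C and 1 XC) and 21 receptors (10 CC, 6 CXC, 1 CX3C, 1 XC and 3 atypical). EpRas is a mammary tumor line of BALB/c background, made from EpH4 mouse mammary epithelial cells by stable overexpression of Ha-Ras, so that the oncogene was present in both groups. Control cells (3 samples) received no treatment, and long-term EMT cells (3 samples) received TGF-β1 at 2 ng/ml over 14 days. Both were grown with fetal calf serum and represent a single tumor line, and the sources used here do not say whether control cells were kept in culture for the same time. RNA of each sample was hybridized to its own whole-transcript array, and the values are log2 signals normalized over the arrays with the RMA algorithm. A further 10 probe sets list a chemokine gene (*Ackr4*, *Ccl21a*, *Ccl21b*, *Ccl21c*, *Ccl27a* or *Cxcl16*) together with another gene. They were left out, and *Cxcl16* was read from a probe set of its own.

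Chemokines are small secreted proteins that direct cell migration. They are grouped as CC, CXC, CX3C and XC by the spacing of conserved cysteines near the amino terminus, and most of their genes lie in clusters that arose by duplication. The receptors span the membrane and signal through inhibitory G proteins, while the atypical receptors bind ligands and remove them without that signal. In the mammary gland and in breast tumors, epithelial and stromal cells make chemokines that attract monocytes, neutrophils and lymphocytes, and tumor cells that carry a receptor can follow the ligand.

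Long-term EMT and control cells were compared with limma, and passing required an adjusted p under 0.05 together with a fold above 1.5. "Rose" and "fell" refer to that test. A background level of 4.48 was taken from 1006 olfactory receptor probe sets (the 95th percentile of their means), genes of the olfactory epithelium. Probe sets differ in brightness, so that values of different genes were set against this level and not against each other. Control replicate 1 stood apart, with a correlation of 0.987 and 0.984 with the other controls across probe sets, against 0.995 between those. Among the ligands, 8 of 34 (23.5%) were more than 1 log2 unit higher in control replicate 1 than in the mean of the other controls, against 3.09% of all genes. Among the receptors this was so for 1 of 21, *Cxcr3*. Among the leukocyte markers, *Ptprc*, *Csf1r* and *Cd3e* lay just above background in both groups, under the 99th percentile of the olfactory receptor means (5.09). Their control means were 4.76, 4.85 and 4.83 and their treated means 4.78, 4.89 and 4.99. *Itgam*, *Adgre1* and *Ms4a1* were not above it, at control means of 4.01, 3.86 and 3.21 and treated means of 4.07, 3.89 and 3.19. Of 8 macrophage and monocyte markers, 5 lay above background in each group and none passed. Among them *Cd14*, *Cd68* and *Mrc1* had control means of 9.58, 8.65 and 6.75 and log2 fold changes of -1.12, 0.27 and 0.50, and *Lyz2*, not above background, was lower on every treated array (-0.57). The mean over that list lay between 5.68 and 6.14 on the control arrays and between 5.61 and 5.94 on the treated ones. The same held for 1 of 5 lymphocyte markers, with a mean over the list from 3.84 to 3.89 and from 3.87 to 4.02. Of 6 neutrophil and mast cell markers 4 lay above background in each group, and the list mean was 4.51 to 5.06 on the control and 4.43 to 4.51 on the treated arrays. In that list *S100a8*, which epithelia also express, was 8.51, 6.40 and 5.26 in control cells and 5.22, 4.91 and 4.61 in treated cells, with control replicate 1 again the highest, while *Mpo* and *S100a9* had log2 fold changes of 0.11 and -0.0067. The part of other cell types in the results was not tested. Of 6 epithelial markers, *Cdh1*, *Epcam*, *Esrp1* and *Grhl2* fell, and the keratin genes *Krt8* and *Krt18* had log2 fold changes of -0.0033 and 0.01. The epithelial list mean was 10.25 to 10.997 on the control and 7.57 to 7.88 on the treated arrays. Of 7 fibroblast markers none passed, at list means of 6.09 to 6.70 and 5.82 to 6.001. *Pdgfra*, *Pdgfrb* and *Dcn* were lower on every treated array than on any control (log2 fold changes -0.95, -1.31 and -1.76) and *Col1a1* was higher (0.62). Of 5 endothelial markers, at list means of 4.18 to 4.22 and 4.56 to 4.85, *Cdh5* rose while *Pecam1*, *Kdr* and *Tek* were not above background in either group. *Tie1* lay just above background in both groups, with a mean of 4.84 in each and a log2 fold change of 0.0067.

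Of the 34 ligands, 1 rose (*Cxcl12*) and 2 fell (*Ccl7* and *Cxcl3*) in long-term EMT cells, and none of the 21 receptors passed. Over all genes, 1.47% rose and 1.49% fell (2.96% in either direction). The array reads RNA of whole cultures, so that fewer cells that make a transcript and less of it per cell cannot be told apart. With the unadjusted p in its place, 1 ligand was higher and 5 were lower (2.88% and 3.71% of all genes), and no receptor was either. In 5 ligands every treated array was below every control array and the fold exceeded 1.5 (*Ccl2*, *Ccl7*, *Cxcl3*, *Cxcl5* and *Cxcl10*), which is 14.7% of the ligands against 3.98% of all genes. In 2 every treated array was above in the same way (*Cxcl12* and *Ccl9*), 5.88% against 2.79%. No receptor separated with that fold. The median log2 fold change was -0.05 over the ligands, 0.04 over the receptors and 0.02 over all genes. The spread was unequal, since the ligands reached from -3.06 to 2.10 and the receptors from -0.15 to 0.44.

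**Figure D1:**
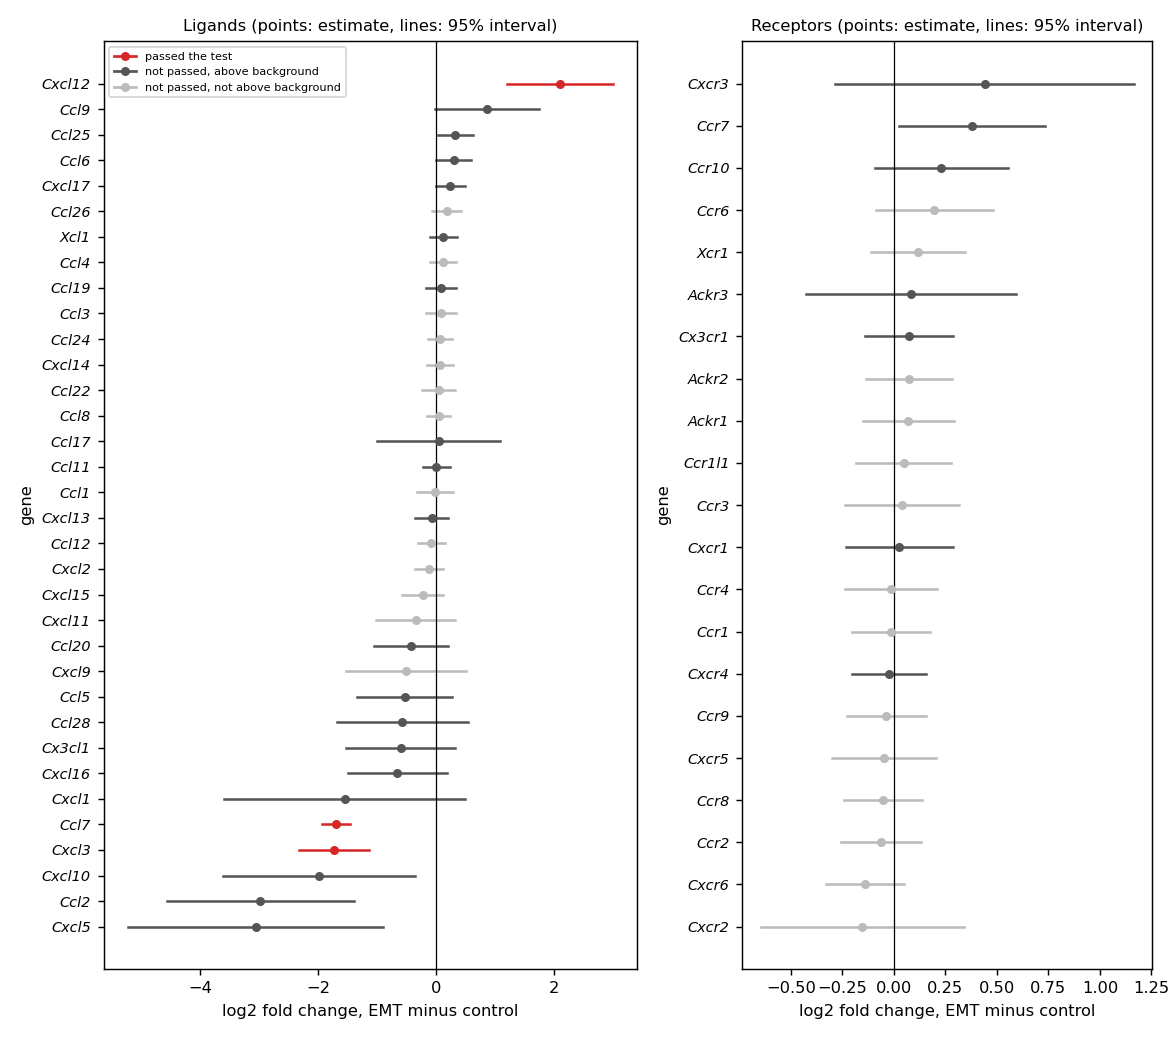
Log2 fold change (long-term EMT minus control, n = 3 per group) of the 34 ligands (left) and 21 receptors (right), each ordered by value, with the 95% interval from limma as a line. Red genes passed the test, dark grey genes lay above background in at least 1 group and light grey genes in neither, and the horizontal scales differ. The lower end holds *Cxcl5*, *Ccl2* and *Cxcl10*, whose intervals are wide, and the upper end *Cxcl12*, while all receptor estimates lie between -0.15 and 0.44.

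The monocyte attractants *Ccl2* and *Ccl7*, which share the receptor Ccr2, had lower values on every treated array. *Ccl7* was 7.07, 7.24 and 7.37 in control replicates 1, 2 and 3 and 5.60, 5.50 and 5.50 in long-term EMT replicates 1, 2 and 3. The groups lay well apart with little spread in either, and the long-term EMT values stayed above background. *Ccl7* fell by 1.69 on the log2 scale, or 3.23-fold (standard error, SE, 0.10, adjusted p = 0.00176 from limma), and it passed whichever array was left out. *Ccl2* was 10.16, 10.52 and 10.51 in control and 9.02, 6.39 and 6.85 in long-term EMT cells. The groups did not overlap, but long-term EMT replicate 1 lay 2.40 above the mean of the other treated arrays. The log2 fold change of *Ccl2* was -2.98, or 7.87-fold lower (SE 0.65, 95% interval -4.56 to -1.40), with an adjusted p of 0.0935, so that it did not pass. Without long-term EMT replicate 1 it was -3.78, with an adjusted p of 0.00818, and *Ccl2* then passed.

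*Ccl2* and *Ccl7* are the first genes of a cluster of 6 CC ligand genes on chromosome 11, in the order *Ccl2*, *Ccl7*, *Ccl11*, *Ccl12*, *Ccl8* and *Ccl1* (RefSeq, GRCm38.p6). None of the other 4 genes passed. *Ccl11*, an attractant of eosinophils, had a mean of 4.87 in both groups, slightly above background (log2 fold change 0.01, 95% interval -0.23 to 0.24). *Ccl12*, *Ccl8* and *Ccl1* lay below background in both groups, where a fall could not be seen. A further cluster on the same chromosome holds *Ccl5*, *Ccl9*, *Ccl6*, *Ccl3* and *Ccl4*. *Ccl9*, a CC ligand of myeloid cells that acts through Ccr1, was 7.28, 8.64 and 8.57 in control and 9.08, 9.17 and 8.84 in long-term EMT cells. All treated arrays lay above all controls, and control replicate 1 was the lowest of all. The log2 fold change of *Ccl9* was 0.87 (SE 0.37, adjusted p = 0.38), and without control replicate 1 it was 0.43. Its neighbor *Ccl6* was 5.20, 5.51 and 5.45 in control and 5.72, 5.82 and 5.52 in long-term EMT cells, with a log2 fold change of 0.30 (95% interval 0.0045 to 0.60, adjusted p = 0.361). The T cell attractant *Ccl5* was 6.71, 5.50 and 5.53 in control and 5.58, 5.25 and 5.32 in long-term EMT cells, and these overlapped. *Ccl3* and *Ccl4* lay below background.

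**Figure D2:**
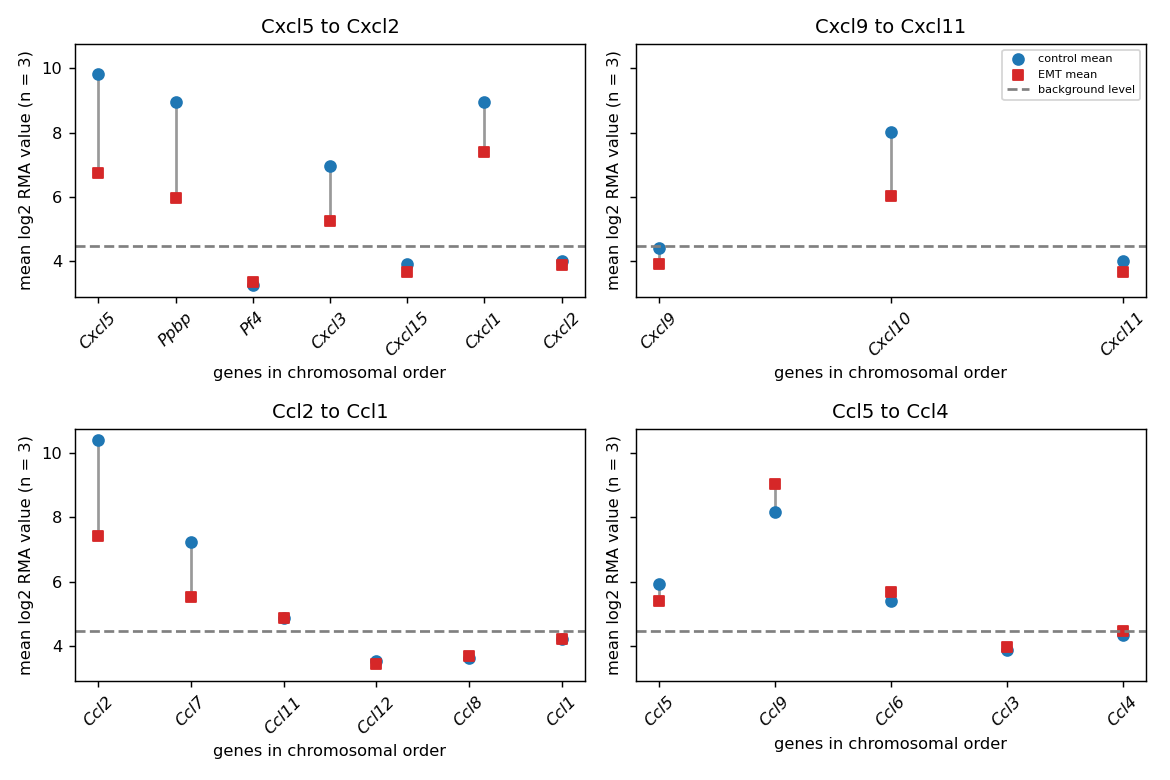
Mean log2 RMA value of control cells (circles) and long-term EMT cells (squares), n = 3 arrays each, for ligand genes in chromosomal order (equal spacing, not to distance) in 4 clusters, with the background level of 4.48 as a dashed line. *Cxcl5*, *Ppbp*, *Cxcl3* and *Cxcl1* in the first cluster, *Cxcl10* in the second and *Ccl2* and *Ccl7* in the third have lower means in long-term EMT cells, while genes between or beside them, such as *Pf4*, *Cxcl15* and *Cxcl2*, lie below the dashed line in both groups.

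The CXC ligands *Cxcl1*, *Cxcl3* and *Cxcl5*, which attract neutrophils through Cxcr2, had lower means in long-term EMT cells, and *Cxcl3* passed. *Cxcl3* was 7.20, 6.45 and 7.24 in control and 5.53, 5.04 and 5.15 in long-term EMT cells, with no overlap. *Cxcl3* fell by 1.72 on the log2 scale, or 3.30-fold (SE 0.24, adjusted p = 0.0251 from limma). It did not pass without control replicate 3 (-1.59, adjusted p = 0.0657) or without long-term EMT replicate 1 (-1.87, adjusted p = 0.0663), 2 (-1.62, adjusted p = 0.122) or 3 (-1.68, adjusted p = 0.116).

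*Cxcl5* had the lowest estimate of all members and also the widest spread. Its values were 11.25, 9.51 and 8.67 in control and 8.36, 5.59 and 6.31 in long-term EMT cells. The highest treated array lay just below the lowest control, and replicate 1 was the highest array in both groups. The log2 fold change of *Cxcl5* was -3.06, or 8.32-fold lower (SE 0.90, 95% interval -5.22 to -0.89), with an adjusted p of 0.194, and without control replicate 1 it was -2.34. *Cxcl1*, the mouse homolog of GRO chemokines, was 10.50, 8.79 and 7.57 in control and 8.68, 6.77 and 6.76 in long-term EMT cells. These values overlapped, and replicate 1 was again the highest in both groups. Its log2 fold change was -1.55 (SE 0.85, adjusted p = 0.524), and without control replicate 1 it was -0.78. In *Ccl2*, *Cxcl5* and *Cxcl1*, 3 of 34 ligands, long-term EMT replicate 1 lay more than 1 log2 unit above the mean of the other treated arrays, against 0.409% of all genes.

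These genes lie together on chromosome 5, in the order *Cxcl5*, *Ppbp*, *Pf4*, *Cxcl3*, *Cxcl15*, *Cxcl1* and *Cxcl2*. *Ppbp* and *Pf4* encode CXC ligands known from platelets and are not members by symbol. *Ppbp* was 8.21, 8.79 and 9.86 in control and 6.07, 5.50 and 6.36 in long-term EMT cells, with a wide gap between the groups. It fell by 2.98 on the log2 scale, or 7.87-fold (SE 0.44, adjusted p = 0.0281 from limma). It passed without control replicate 1 or 3, and without control replicate 2 or long-term EMT replicate 1, 2 or 3 the adjusted p was 0.111, 0.111, 0.123 and 0.0922, at log2 fold changes of -3.06, -3.02, -2.74 and -3.17. *Pf4*, *Cxcl15* and *Cxcl2* lay below background in both groups. *Cxcl1*, *Cxcl2* and *Cxcl3* are close relatives, and how far their probes share transcripts was not tested.

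The 250 bases before the start of *Cxcl3*, *Cxcl1* and *Cxcl2* are shown because these neighbors share a κB motif, the site of NF-κB. On the arrays *Cxcl3* fell by 1.72 on the log2 scale, *Cxcl1* had a log2 fold change of -1.55 that did not pass, and *Cxcl2* was below background, where no difference between these genes can be read. The sequences are those of RefSeq (GRCm38.p6, plus strand) at chr5:90785851-90786100, chr5:90890995-90891244 and chr5:90903649-90903898. Capitals mark the κB motif, searched by its consensus on both strands.
Cxcl3: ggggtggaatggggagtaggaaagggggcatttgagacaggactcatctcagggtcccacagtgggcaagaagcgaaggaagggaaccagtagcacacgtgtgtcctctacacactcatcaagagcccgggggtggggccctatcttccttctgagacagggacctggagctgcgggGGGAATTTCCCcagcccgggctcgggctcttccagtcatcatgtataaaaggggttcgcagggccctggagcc
Cxcl1: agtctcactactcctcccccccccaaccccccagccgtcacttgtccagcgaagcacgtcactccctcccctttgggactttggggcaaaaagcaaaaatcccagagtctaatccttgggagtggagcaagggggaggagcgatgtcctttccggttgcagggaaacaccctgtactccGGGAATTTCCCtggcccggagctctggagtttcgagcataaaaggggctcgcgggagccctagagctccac
Cxcl2: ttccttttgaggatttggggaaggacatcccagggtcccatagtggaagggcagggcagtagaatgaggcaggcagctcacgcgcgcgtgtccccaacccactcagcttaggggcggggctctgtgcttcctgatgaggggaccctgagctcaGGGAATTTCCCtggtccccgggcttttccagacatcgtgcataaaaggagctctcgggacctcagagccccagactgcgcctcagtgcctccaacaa
The same 11 capital letters stand in each window, where the motif matches on either strand in 2 overlapping positions. The motif occurred in 7.25% of 32851 promoter windows of this length. Promoter windows were at hand for 23 of the 34 ligands, and 7 of them held the motif, namely *Ccl1*, *Ccl9*, *Ccl20*, *Cxcl1*, *Cxcl2*, *Cxcl3* and *Cxcl10*. *Ccl2*, *Ccl7* and *Cxcl5* are not among the 23. A motif match is a description of letters, and binding was not measured. Of the 7, *Cxcl3* fell, and *Cxcl10*, *Cxcl1* and *Ccl20* had lower means without passing (-1.99, -1.55 and -0.42 on the log2 scale). *Ccl9* had a higher mean without passing (0.87), and *Ccl1* and *Cxcl2* were not above background. Without control replicate 1 the log2 fold changes of *Cxcl10*, *Cxcl1*, *Ccl20* and *Ccl9* were -1.20, -0.78, -0.11 and 0.43. Ligands without the motif were not set beside these, and a relation of the motif to the changes was not tested.

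*Cxcl10*, *Cxcl9* and *Cxcl11* encode interferon-induced ligands of Cxcr3 that attract T cells. *Cxcl10* was 9.61, 7.22 and 7.25 in control and 6.62, 5.73 and 5.77 in long-term EMT cells. The groups did not overlap, and replicate 1 was the highest array in each. The log2 fold change of *Cxcl10* was -1.99 (SE 0.67, 95% interval -3.61 to -0.36, adjusted p = 0.263), and without control replicate 1 it was -1.20. *Cxcl9* was 5.46 in control replicate 1, and 3.97 and 3.85 in the other controls against 4.01, 3.82 and 3.92 in long-term EMT cells, so that it exceeded background on a single array. *Cxcl11* did the same with 4.66 in control replicate 1. The *Cxcl10* window is shown for its interferon-stimulated response element (ISRE, TTTC repeated after 2 unspecified bases, on either strand and in 2.98% of windows) beside κB matches, both in capitals, at chr5:92348890-92349139 on the minus strand.
Cxcl10: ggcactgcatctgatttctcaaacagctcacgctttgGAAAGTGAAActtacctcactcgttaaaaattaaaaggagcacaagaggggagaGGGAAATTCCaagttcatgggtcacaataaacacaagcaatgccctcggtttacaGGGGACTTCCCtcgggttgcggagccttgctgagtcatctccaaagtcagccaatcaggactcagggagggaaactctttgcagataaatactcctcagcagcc
Reading 5′ to 3′, the first capitals are the ISRE, found on the reverse strand, and the later ones are κB matches. *Ccl19* and *Cxcl14* were the other ligands of the 23 with the ISRE, and neither passed (log2 fold changes 0.09 and 0.07).

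*Cxcl12* (stromal cell-derived factor 1), which guides cells that carry Cxcr4, was the one ligand of the 34 that rose. Its values were 6.77, 7.76 and 8.28 in control and 9.91, 9.53 and 9.67 in long-term EMT cells. The treated arrays were close together and all above the controls, of which replicate 1 was the lowest. *Cxcl12* rose by 2.10 on the log2 scale, or 4.29-fold (SE 0.37, adjusted p = 0.0484 from limma). The call stood near the threshold. It was lost without control replicate 2 (2.18, adjusted p = 0.15) and without long-term EMT replicate 1 (2.00, adjusted p = 0.17), 2 (2.19, adjusted p = 0.166) or 3 (2.12, adjusted p = 0.173), and it held without control replicate 1 (1.68) and without control replicate 3 (2.44). *Cxcl12* lies alone on chromosome 6. Its window, chr6:117168285-117168534 on the plus strand, is shown for comparison with those of the CXC ligands above, and it held neither motif in these letters.
Cxcl12: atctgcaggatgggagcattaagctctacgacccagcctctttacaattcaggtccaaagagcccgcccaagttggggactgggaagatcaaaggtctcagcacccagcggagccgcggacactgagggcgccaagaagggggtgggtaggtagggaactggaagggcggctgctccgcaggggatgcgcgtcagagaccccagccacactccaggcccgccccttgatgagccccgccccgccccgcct

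**Figure D3:**
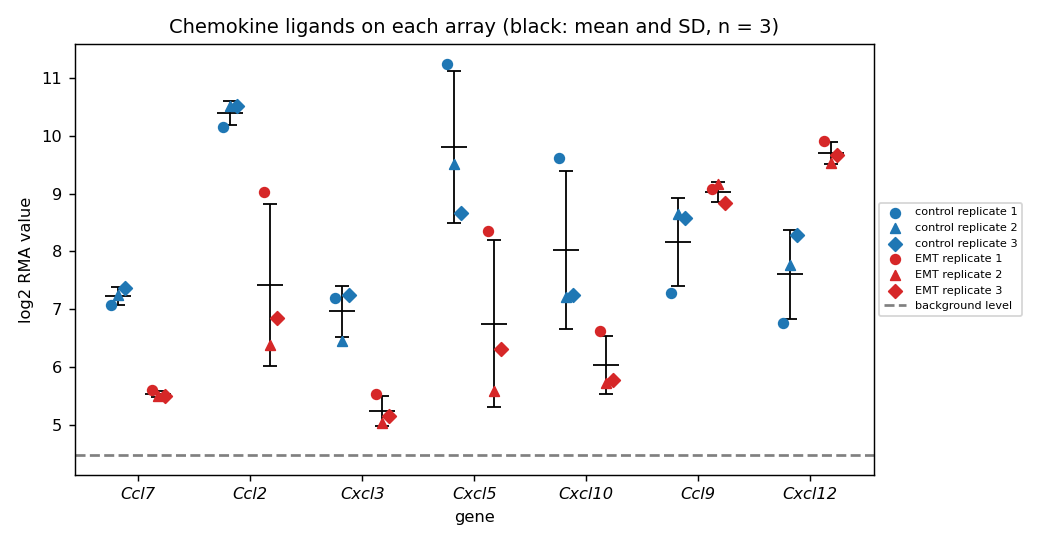
Log2 RMA value of the 7 ligands whose groups did not overlap with a fold above 1.5, on each array of control cells (blue) and long-term EMT cells (red), with the replicate number as the marker shape, the mean and SD of each group in black and the background level of 4.48 dashed. *Ccl7* is tight in both groups, *Ccl2*, *Cxcl5* and *Cxcl10* spread widely with replicate 1 uppermost among the treated arrays, and *Cxcl12* rises from control values of 6.77 to 8.28 to treated values of 9.53 to 9.91.

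Both receptors of *Cxcl12* were measured. *Cxcr4*, the signaling receptor, was 4.51, 4.54 and 4.60 in control and 4.56, 4.46 and 4.56 in long-term EMT cells, close to the background level. Its log2 fold change was -0.02 (SE 0.07, 95% interval -0.20 to 0.16). *Ackr3*, which removes *Cxcl12*, was 7.85, 7.05 and 7.24 in control and 7.58, 7.32 and 7.49 in long-term EMT cells. These values lay clearly above background and overlapped, with a log2 fold change of 0.08 (SE 0.21, 95% interval -0.43 to 0.59).

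*Cx3cl1* (fractalkine), *Cxcl16*, *Ccl17*, *Ccl20*, *Ccl25* and *Ccl28* were other ligands above background in both groups. *Cx3cl1* and *Cxcl16* are made as membrane-bound proteins from which the chemokine can be shed. *Cx3cl1* was 10.75, 9.72 and 9.17 in control and 9.38, 9.36 and 9.10 in long-term EMT cells, and *Cxcl16* was 10.20, 9.55 and 9.23 and 9.62, 8.84 and 8.55. Both pairs of groups overlapped, with log2 fold changes of -0.60 (95% interval -1.52 to 0.32) and -0.66 (95% interval -1.49 to 0.18). Without control replicate 1 these were -0.17 and -0.39. The second probe set that lists *Cxcl16* together with *Zmynd15* had a log2 fold change of 0.42, the opposite sign. *Ccl17*, a ligand of Ccr4, was 8.18, 6.97 and 6.39 in control cells, a wider span than on the treated arrays, whose highest value was 7.39, and the log2 fold change was 0.04 with a SE of 0.43. It was 0.54 without control replicate 1 and -0.35 without control replicate 3, so that its direction rests on single arrays. The mucosal ligands *Ccl28* and *Ccl20* had their highest value in control replicate 1 (6.60 and 6.14), and without that array the log2 fold changes of -0.57 and -0.42 became -0.01 and -0.11. *Ccl25*, known from thymus and gut, was 7.63, 7.44 and 7.47 in control and 8.06, 7.80 and 7.66 in long-term EMT cells. Its groups did not overlap, but the log2 fold change was 0.33 (adjusted p = 0.32), and its second probe set had 0.45 (adjusted p = 0.0903).

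*Cxcl17*, *Cxcl13* and *Ccl11* lay just above background in both groups, and *Ccl19* and *Xcl1* only in long-term EMT cells and by little. *Cxcl17*, a mucosal ligand, had means of 5.20 and 5.44 with groups that did not overlap (log2 fold change 0.24, adjusted p = 0.381). The 5 probe sets of *Ccl19* had log2 fold changes between 0.03 and 0.09. A further 13 ligands lay at or below background in both groups, with log2 fold changes from -0.51 (*Cxcl9*) to 0.18 (*Ccl26*), and changes below background cannot be read from these arrays.

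Receptor transcripts were few. Of the 21 receptors, 7 lay above background in both groups (33.3%, against 71.3% of all genes in at least 1 group), and the counts for the ligands were 19 in both groups and 21 (61.8%) in at least 1. *Ccr7*, the receptor by which dendritic cells and some tumor cells home to lymph nodes, was 6.40, 6.18 and 6.23 in control and 6.95, 6.53 and 6.47 in long-term EMT cells. It was the only receptor of the 21 whose groups did not overlap, which 12.6% of all genes did in that direction. The log2 fold change of *Ccr7* was 0.38 (SE 0.15, 95% interval 0.03 to 0.73, adjusted p = 0.331). *Cxcr3*, the receptor of *Cxcl10*, was 6.13, 5.34 and 4.90 in control and 5.97, 5.98 and 5.74 in long-term EMT cells. Control replicate 1 was the highest array, and without it the log2 fold change of 0.44 (adjusted p = 0.633) became 0.78. *Ccr10*, the receptor of *Ccl28*, and *Cx3cr1*, the receptor of *Cx3cl1*, had log2 fold changes of 0.23 and 0.07 with means of 4.58 and 4.85 in control cells. *Cxcr1* had one of 0.03. *Ccr10*, *Cx3cr1* and *Cxcr1* lay only just above background.

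**Figure D4:**
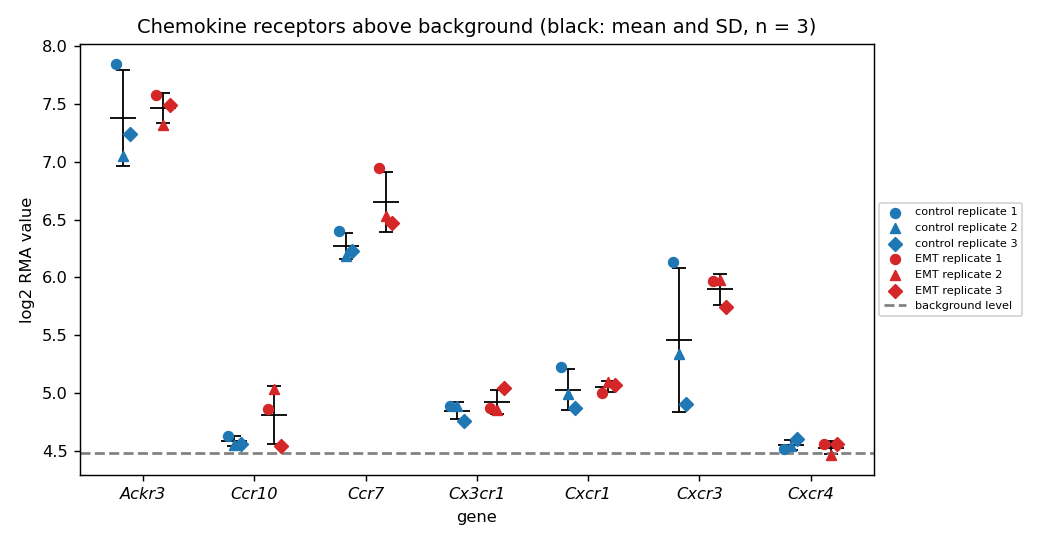
Log2 RMA value of the 7 receptors above background on each array of control cells (blue) and long-term EMT cells (red), with the replicate number as the marker shape, the mean and SD of each group in black and the background level of 4.48 dashed. The groups are apart for *Ccr7* and overlap for the other 6, and *Cxcr4* lies on the dashed line. Control replicate 1 is the highest array for *Cxcr3*, *Ackr3* and *Cxcr1*.

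The receptors named above for the ligands that fell, *Ccr2* for *Ccl7* and *Cxcr2* for *Cxcl3*, were not above background. *Ccr2*, which is also a receptor of *Ccl2*, had a control mean of 3.62 and a treated mean of 3.56, and *Cxcr2* had means of 3.75 and 3.59. A cluster on chromosome 9 holds *Ccr9*, *Cxcr6*, *Xcr1*, *Ccr1*, *Ccr1l1*, *Ccr3* and *Ccr2*, and all 7 lay below background in both groups. So did *Ccr4*, *Ccr6*, *Ccr8*, *Cxcr5* and the atypical receptors *Ackr1* and *Ackr2*. The log2 fold changes of these 14 receptors ran from -0.15 (*Cxcr2*) to 0.20 (*Ccr6*).

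Downstream of the receptors, 3 of 19 measured genes of coupling and ligand trimming passed, against 2.96% of all genes in either direction. *Gng2*, a G protein γ subunit, rose from a mean of 7.58 ± 0.45 to 9.05 ± 0.08 (SD, n = 3), a log2 fold change of 1.47 (adjusted p = 0.0292). *Grk5*, a kinase that desensitizes receptors, fell by 1.60 on the log2 scale (adjusted p = 0.0164), and *Pik3r5*, the regulatory subunit of PI3-kinase γ, fell by 1.10 (adjusted p = 0.00876). The inhibitory G protein genes *Gnai2* and *Gnai3* did not pass (-0.083 and -0.0033), nor did the G protein gene *Gnb1* (0.06). *Dock2* and *Elmo1*, which act in leukocyte migration, lay below background. *Rac2*, *Prex1* and *Pik3cg* lay above background in both groups and did not pass (-0.52, -0.08 and 0.02). Without control replicate 1 the log2 fold change of *Rac2* was 0.075. *Arrb1* (β-arrestin 1) ranged from 6.41 to 8.80 in control and from 5.10 to 6.98 in long-term EMT cells. The median log2 fold change over the list was -0.04.

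Of 26 measured NF-κB and inflammatory regulators, only *Tnfrsf1a*, the main TNF receptor, passed, a share near the 2.96% of all genes. It was 10.12, 9.97 and 10.09 in control and 9.44, 9.38 and 9.45 in long-term EMT cells and fell by 0.64 (adjusted p = 0.0149). The interleukin 1 receptor gene *Il1r1* was 8.44, 7.59 and 7.33 in control and 6.70, 6.15 and 6.11 in long-term EMT cells, a log2 fold change of -1.47 that did not pass (adjusted p = 0.0856). *Cebpd*, a transcription factor of the acute phase, had a log2 fold change of -1.15 (adjusted p = 0.0635). The NF-κB subunit genes *Rela*, *Relb*, *Nfkb2* and *Rel* had log2 fold changes of 0.26, 0.19, 0.40 and -0.18, and the inhibitor gene *Nfkbia* one of -0.29, none of which passed. *Il1a* was 9.41 in control replicate 1 and 8.14 in long-term EMT replicate 1 and between 4.36 and 5.62 on the other arrays, so that the arrays with number 1 stood high here as they did for *Cxcl5*, *Cxcl1* and *Cxcl10*. The part of *Il1a* in those values was not tested. *Tnf*, *Il1b* and *Il6* had control means of 4.72, 3.92 and 2.96. In 8 genes of the list the groups were apart with lower and in 5 with higher values in long-term EMT cells (11.5% and 12.6% of all genes), and the median log2 fold change was -0.16. Of 11 chemokine-like genes outside the symbol rule, *Ppbp* fell and 10 did not pass, among them *Cmklr1* (0.54) and *Ccrl2* (-0.77). *Ccrl2* was 5.81 in control replicate 1, and without that array its log2 fold change was -0.14. Without control replicate 2 or long-term EMT replicate 2 or 3, none of the 5 genes of these lists passed. Without long-term EMT replicate 1 only *Pik3r5* did (-1.14). In the limma fit without control replicate 3, *Tnfrsf1a* did not pass (-0.62, adjusted p = 0.0528). *Cebpd*, which did not pass with all arrays, passed in that fit (-1.39, adjusted p = 0.0147). Over all fits with 1 array left out, the log2 fold changes ranged from 1.22 to 1.65 for *Gng2*, from -1.80 to -1.39 for *Grk5*, from -1.20 to -1.04 for *Pik3r5* and from -0.68 to -0.61 for *Tnfrsf1a*.

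**Figure D5:**
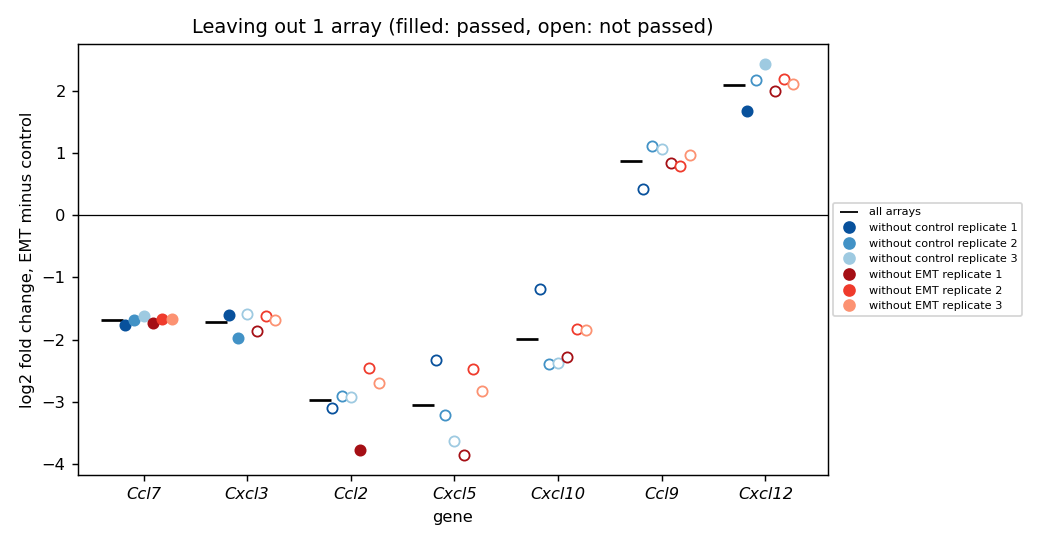
Log2 fold change (long-term EMT minus control) of 7 ligands with all arrays (black bar) and with 1 array left out (circles, colored by the array left out, filled where the gene passed and open where it did not). *Ccl7* passed in all 6 fits, *Cxcl3* and *Cxcl12* in 2 each and *Ccl2* in 1, the fit without long-term EMT replicate 1, and the estimates of *Cxcl5* ranged from -3.86 to -2.34.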

How the data were processed

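The members and lists were chosen with earlier results of these data known. RNA from 6 samples was labeled with biotin and hybridized to Affymetrix MoGene-1_1-st-v1 arrays. The authors processed the arrays with RMA, per the labels in Affymetrix Expression Console, and deposited log2 values with 2 decimals for 35556 probe sets; the version and genome build are not given in the sources used here. RMA sets the arrays to one distribution, so that only changes relative to it are seen. The values were used as deposited. The 2 groups were tested on the log2 scale by limma (version 3.58.1, under R 4.3.3), using lmFit and eBayes without a replicate block and adjusting all probe sets by Benjamini-Hochberg, which stands in for the Student test of the study's statistics section. A gene was read from the probe set with 1 symbol and the highest mean over the 6 arrays. The study's statistics section mentions independent experiments, each in triplicate, but it is unclear if the arrays are meant, so that a p-value reflects the variation among these 6 arrays alone, possibly technical, and their small number limits precision. Values on each array are given for members that passed or whose groups did not overlap with a fold above 1.5, and other members above background are named, some with their values on each array. Of the listed genes, 3 chemokine-like genes (*Rarres2*, *Fpr1* and *Fpr2*), *Grk2*, *Nfkb1* and *Chuk* were not analysed here, and some other items are not reported here. The fit was tested on simulated data. Promoter sequences are from RefSeq.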

Additional observations from a re-analysis of the deposited data

How the results depend on the processing

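The 7 ligands whose groups did not overlap with a fold above 1.5 kept their direction under all 18 alternatives. This is no check of the direction. Leaving out 1 array cannot turn it in groups that do not overlap, and several alternatives change only the p-value or the threshold. *Ccl7* stayed past the test in all 18, with log2 fold changes between -1.77 and -1.62. *Ccl9* stayed short of it in all, with values between 0.43 and 1.11. Of the other members, *Cxcl9* went from -0.51 to 0.0067 without control replicate 1. The number of ligands that rose was 1, and it was 0 with the replicate block, 0 with the methods' t-test after Benjamini-Hochberg adjustment, 0 after a second quantile normalization and 0 with equal array medians, where the adjusted p of *Cxcl12* was 0.0939, 0.224, 0.0501 and 0.0516. It ranged from 0 to 1 when 1 array was left out. The number that fell was 2, and it was 1 with the methods' t-test after adjustment, 3 with the methods' t-test unadjusted, where *Ccl2* passed beside *Ccl7* and *Cxcl3*, 5 at an unadjusted p and from 1 to 2 when 1 array was left out. No receptor passed under any alternative, including the methods' t-test at an unadjusted p. Of the related genes 5 passed, and between 0 and 5 did when 1 array was left out. With the 99th percentile as background (5.09), 3 receptors (*Ackr3*, *Ccr7* and *Cxcr3*) lay above it in place of 7. Same-numbered arrays deviated together at r = 0.188, 0.0203 and 0.249 across probe sets, and arrays of different number at r from -0.267 to 0.142. Whether the samples are paired cannot be told from these values. With the replicate block *Cxcl5* passed (adjusted p = 0.035) and *Cxcl12* did not, so that *Ccl7*, *Cxcl3* and *Cxcl5* fell. Differences between genes near background could not be seen, as signal over background limits them.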
